A study of Mus musculus with 14 samples.

Results

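Dendritic cells (DCs) that had been marked through their CD40 receptor by T cells were set against DCs of mice without Cd40. The comparison takes 8 of the 14 libraries of the series: all 6 biotin-positive libraries and both Cd40-null libraries. It was made across all genes of the table, and each null library is shown on its own. Every library held 150 sorted cells from the popliteal lymph node of C57BL/6 mice and was made with Smart-seq2. For the biotin-positive group, Cd40G5/G5 mice, whose genotype the labels also write as G5-Cd40+/+, were given Cd40G5/G5 DCs pulsed with the ovalbumin peptide OVA323-339, and 18 hours later OT-II CD4+ T cells of the genotype CD40lgSrtA/Y CD4-Cre. Biotin-LPETG, the substrate (300 nmol per footpad), was injected 46 hours after the T cells, and nodes were harvested at 48 hours. Libraries were made from endogenous DCs, not the transferred ones, sorted as biotin-positive and as high in MHC class II, CD11c+ (Cd11c-int in the population label), CD11b+ and XCR1-. The null group, sorted by the same surface proteins, came from Cd40-/- mice that received WT DCs and WT OT-II CD4+ T cells and were otherwise treated alike. Genotype, transferred DCs and transferred T cells therefore differed together between the groups. Null DCs were taken whole with respect to biotin, and the biotin-positive DCs are 1 sorted fraction of theirs. The labels do not say which libraries came from separate mice, so a p-value here measures only how these samples spread, which may be technical. Biotin-negative libraries (n = 6), from the same kind of mice as the biotin-positive ones, are given beside some results as levels. They also entered the main fit, made over all 14 libraries, so they help set the spread behind the p-values of genes.

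CD40 is a receptor of the tumour necrosis factor receptor family on DCs, B cells and macrophages. Its ligand appears on activated helper T cells, and binding recruits TRAF adaptors that switch on NF-kB signalling. In DCs this is known to raise costimulatory ligands, cytokines and survival proteins, a step called licensing. In the labelling method, LIPSTIC, sortase on the T cell's CD40 ligand attaches a biotinylated peptide to a run of glycines on the CD40 of the DC it touches.

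Total counts were between 1.45e+07 and 3.33e+07 in the biotin-positive libraries, and 2.38e+07 and 1.97e+07 in null replicates 1 and 2. Between 13090 and 13455 genes had counts in biotin-positive libraries, against 13596 and 13113 in the null libraries (exact permutation test, two-sided p = 0.786, where 28 arrangements allow no p below 0.0714). Levels below are CPM, counts scaled to library size with TMM factors. The DC marker Flt3, a growth factor receptor, stood at 907 to 1156 CPM in biotin-positive libraries and at 763 and 894 CPM in the null libraries. The transcript for CD11b, Itgam, was scarce for a population sorted on that protein, with 0.0516, 0.942 and 5.88 CPM as the lowest, median and highest biotin-positive values and 18.3 and 11.2 CPM in the null libraries (log2 -2.98, SE 1.03, adjusted p = 0.176). Xcr1, which encodes a protein that the sort excluded, was at most 2.58 CPM in these 8 libraries, and the type 1 DC marker Clec9a was at 0 in all 8.

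Cd40 transcript separated the groups in every library. It lay on chromosome 2 from 165055627 to 165072948 (mm10, plus strand). Biotin-positive libraries held 852, 1057 and 1309 CPM as their lowest, median and highest values. Null replicates 1 and 2 held 74.2 and 53.3 CPM, which is 6.98% and 5.02% of the biotin-positive mean, so the null libraries were far below the others but not at 0. The difference was called (log2 4.06, SE 0.23, adjusted p = 4.49e-08), and its direction is fixed by the genotype. The labels do not give the exons that the null allele lacks. Of 72 tested genes within 5 Mb of Cd40, a stretch that can carry other alleles in a knockout line, 3 were called, all higher. Beside Cd40 itself they were Serinc3, a membrane protein of the serine incorporator family (407 to 597 CPM against 254 and 259.7 CPM; log2 1.04, SE 0.17, adjusted p = 0.00278), and Ttpal, a tocopherol transfer protein-like gene (40.2 to 61.6 against 29.7 and 16.7 CPM; log2 1.08, SE 0.27, adjusted p = 0.042). With Cd40 left out 2 of 71 were called, 2.82%, near the 2.27% of all tested genes. Without null replicate 1 the adjusted p was 0.0694 for Serinc3 and 0.0608 for Ttpal, and without null replicate 2 it was 0.0531 and 0.455. Without any 1 of biotin-positive replicates 1, 3, 4, 5 and 6 the call of Ttpal was also lost.

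Across the genome, 323 of 14217 tested genes passed a false discovery rate of 0.05 in edgeR's quasi-likelihood test (2.27%). Of these, 174 were higher in biotin-positive DCs (1.22%) and 149 were lower (1.05%). At 2-fold or more, 99 were higher (0.696%) and 97 were lower (0.682%). The higher genes were mostly well expressed ones that differed moderately: their median mean level was 193 CPM in biotin-positive and 79.0 CPM in null libraries. The lower genes were scarcer in biotin-positive libraries, at a median of 34.9 CPM, which choosing genes by direction favours. In null libraries their median was 93.2 CPM, above the 79.0 CPM of the higher genes. Of the lower genes 26 differed at least 8-fold, against 17 of the higher ones. The median log2 fold change was 1.08 for the higher and -1.41 for the lower genes, against 0.04 over all tested genes.

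The called genes come from a fit to both null libraries, which favours genes on which the 2 are alike, so the following medians are a description. The higher genes had a median log2 difference of 1.16 from null replicate 1 and 1.06 from null replicate 2, and the lower genes -1.40 and -1.48. In 322 of the 323 called genes, both null libraries lay outside the biotin-positive range. Over all tested genes, both lay below every biotin-positive library in 7.81% and above every one in 8.07%. The exception was Cxcl13, a B cell-attracting chemokine that lymph node stroma makes, with 0 to 2.82 CPM in biotin-positive libraries and 107 and 2.27 CPM in the null libraries. Among genes at a pair mean of at least 20 CPM, 5.09% differed 2-fold or more between the 2 null libraries, and 4.10% to 8.45% between 2 biotin-positive libraries. Between a null and a biotin-positive library the share was 10.0% to 13.3% for null replicate 1 and 9.60% to 11.4% for null replicate 2. With only 2 null libraries, calls depended on both: 78 genes were called without null replicate 1 and 95 without null replicate 2. Of the 323, 42 stayed called in both of those fits, 21 higher and 21 lower.

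**Figure D1:**
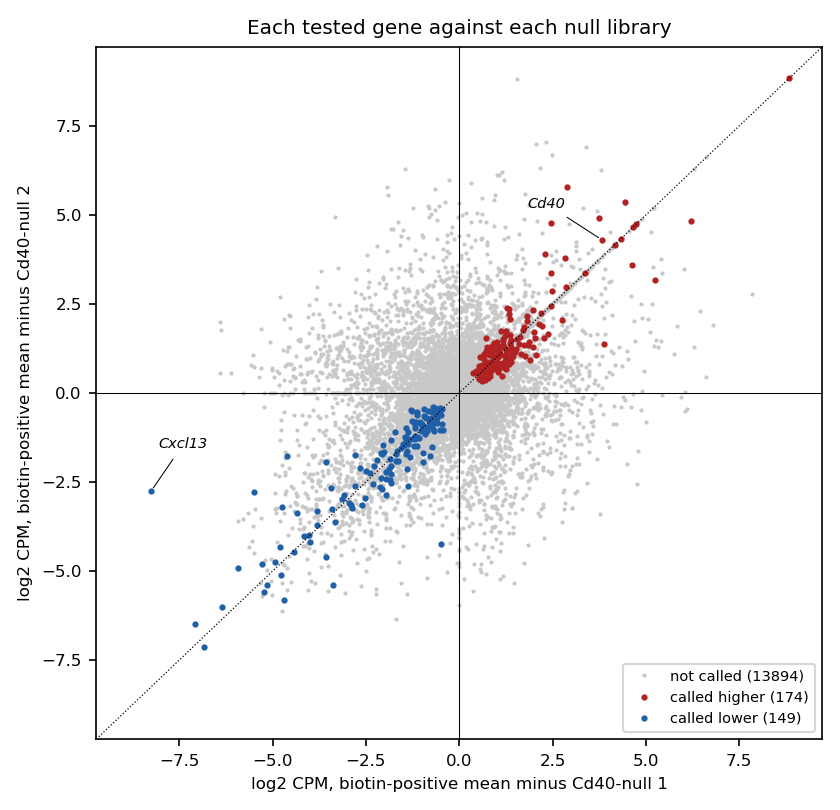
Every tested gene, placed by the biotin-positive mean log2 CPM minus its log2 CPM in null replicate 1 (x axis) and in null replicate 2 (y axis). Most of the 174 genes called higher (red) and 149 called lower (blue) lie near the dotted diagonal, while Cxcl13 lies far from it; Cd40 is marked.

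Among the higher genes with the smallest p, several regulate signalling and transcription. Tsc22d3 encodes GILZ, a leucine zipper protein that glucocorticoids induce. It held 586, 705 and 782 CPM (lowest, median, highest) in biotin-positive libraries and 123 and 94.1 CPM in null replicates 1 and 2 (log2 2.66, SE 0.19, adjusted p = 5.87e-07). Pdcd4, an inhibitor of translation initiation, held 106, 142 and 179.7 CPM against 39.8 and 31.3 CPM (log2 2.00, SE 0.22, adjusted p = 1.71e-04). Neither gene's groups came close to overlapping. Fam53b, a nuclear protein, held 1004, 1412 and 1776 CPM against 266 and 442 CPM, 4.00-fold higher (log2 2.00, SE 0.23, adjusted p = 2.34e-04). N4bp1, a ribonuclease that restrains NF-kB signalling, held 123, 138 and 161 CPM against 54.9 and 29.5 CPM (log2 1.71, SE 0.22, adjusted p = 4.69e-04). All 4 stayed called without either null library.

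Genes of membrane traffic and transport were among the higher ones as well. The sorting nexin Snx11 held 129, 149 and 180.1 CPM in biotin-positive libraries and 58.5 and 54.2 CPM in the null libraries (log2 1.44, SE 0.17, adjusted p = 2.28e-04). Rin3, an exchange factor for Rab5 GTPases of early endosomes, held 66.8, 72.9 and 86.4 CPM against 28.003 and 29.9 CPM (log2 1.35, SE 0.18, adjusted p = 6.27e-04). Gramd3, which binds lipids at contacts between membranes, held 339.7, 363 and 383 CPM against 117 and 122 CPM (log2 1.60, SE 0.16, adjusted p = 1.05e-04). The null libraries were within 5 CPM of each other for each of these 3 genes. Atp2b1, a calcium pump of the plasma membrane, held 602, 650.1 and 684 CPM against 333 and 366 CPM (log2 0.89, SE 0.11, adjusted p = 3.64e-04). Slc25a29, a mitochondrial carrier of basic amino acids, held 392, 513 and 535 CPM against 145 and 188 CPM (log2 1.54, SE 0.20, adjusted p = 5.33e-04), and Gpcpd1, a glycerophosphodiesterase, 283, 316 and 391 CPM against 153 and 139 CPM (log2 1.14, SE 0.15, adjusted p = 6.27e-04). All 6 stayed called without either null library.

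**Figure D2:**
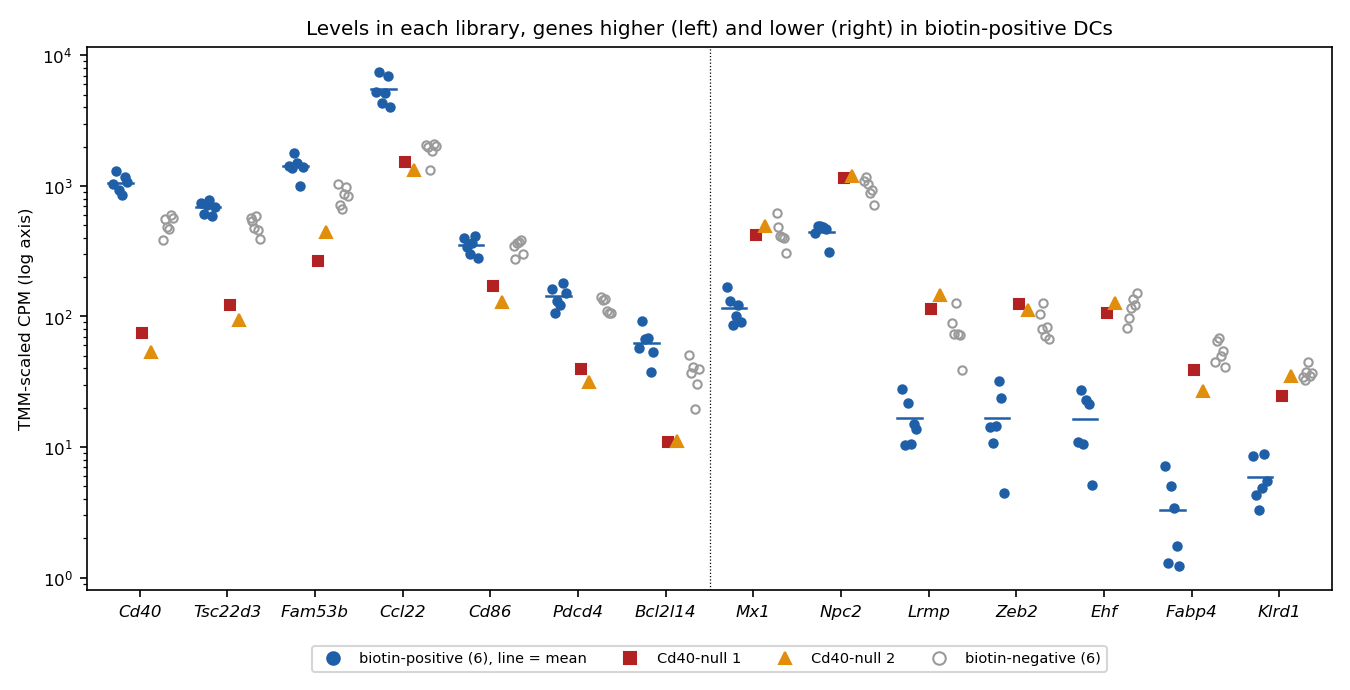
TMM-scaled CPM (log axis) of 14 genes in every library: biotin-positive (filled circles, line at the mean, n = 6), null replicate 1 (square), null replicate 2 (triangle) and biotin-negative (open circles, n = 6). For each gene both null libraries lie outside the biotin-positive range, above it for the 7 genes on the right; Cd40 is at 74.2 and 53.3 CPM in the null libraries.

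The biotin-negative libraries, of the same genotype as the biotin-positive ones, lay near either end for different genes. The 2 comparisons that follow share libraries with each other and with the main one, so each gene's values are only set side by side. Biotin-negative libraries held 394, 507 and 587 CPM of Tsc22d3 (lowest, median, highest), and their differences from the null libraries (log2 2.22, adjusted p = 6.20e-06) and from biotin-positive (log2 0.45, adjusted p = 0.0188) were both called. For Pdcd4 they held 107, 122 and 141 CPM, with a called difference from null (log2 1.79, adjusted p = 8.79e-04) and none from biotin-positive (log2 0.21, adjusted p = 0.426). The same held for Rin3 (68.1 to 85.7 CPM; against null log2 1.41, adjusted p = 0.00101; biotin-positive against biotin-negative log2 -0.05, adjusted p = 0.868) and Gpcpd1 (268 to 357 CPM; log2 1.07, adjusted p = 0.00272; log2 0.07, adjusted p = 0.768). Snx11 was the other way round: biotin-negative libraries held 47.0, 52.8 and 55.1 CPM, near the null libraries (log2 -0.13, adjusted p = 0.864) and below biotin-positive (log2 1.56, adjusted p = 5.71e-07). Slc25a29 was near null as well (151, 218 and 273 CPM; log2 0.37, adjusted p = 0.564; log2 1.17, adjusted p = 3.01e-05). Over all tested genes 0.317% were called between biotin-negative and null libraries and 7.75% between the biotin groups. The first comparison has 6 against 2 libraries and the second 6 against 6. The 2 shares therefore cannot tell which groups are more alike.

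Ligands by which DCs address T cells were higher where they were called. Of 25 tested costimulatory and inhibitory ligands, 4 were higher and 0 lower (16% higher, against 1.22% of all tested genes), with a median log2 fold change of -0.02 against 0.04 over all. Cd86, which binds CD28, held 279.6, 356 and 417 CPM against 172 and 128 CPM (log2 1.23, SE 0.19, adjusted p = 0.00178). Icosl, the ligand of ICOS, held 274, 343 and 412 CPM against 148 and 188 CPM (log2 1.02, SE 0.18, adjusted p = 0.00582). The poliovirus receptor Pvr, which binds CD226 and TIGIT, held 113, 154 and 233 CPM against 58.1 and 83.5 CPM (log2 1.16, SE 0.25, adjusted p = 0.023), and the adhesion ligand Icam1 1320.1, 1737 and 1797 CPM against 949 and 1179.9 CPM (log2 0.62, SE 0.15, adjusted p = 0.0394). In each of the 4 every biotin-positive library lay above both null libraries. Other members were not called: Cd80, the second CD28 ligand, held 4.90 to 23.5 CPM against 10.7 and 7.28 CPM (adjusted p = 0.591), Cd83 986 to 1541 against 1076 and 1244 CPM (adjusted p = 0.984) and the PD-1 ligand Cd274 55.8 to 145 against 135 and 98.4 CPM (adjusted p = 0.609). For Cd86 the biotin-negative libraries (274 to 386 CPM) overlapped the biotin-positive ones. With null replicate 1 left out the adjusted p was 0.0128 for Cd86, 0.156 for Icosl, 0.356 for Pvr and 0.488 for Icam1, and without null replicate 2 it was 0.0643, 0.0396, 0.073 and 0.095. Icam1 also lost its call without any 1 of biotin-positive replicates 2, 4, 5 and 6.

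Chemokine genes moved both ways. Of 28 tested chemokines and receptors 3 were higher and 3 lower (10.71% each, against 1.22% and 1.05% of all tested genes), with a median log2 fold change of -0.25. The CCR4 ligands Ccl22 and Ccl17 were both higher: Ccl22 held 4022, 5177 and 7495 CPM against 1517 and 1323 CPM (log2 1.96, SE 0.23, adjusted p = 2.55e-04), and Ccl17 149, 183 and 381 CPM against 83.0 and 80.2 CPM (log2 1.48, SE 0.36, adjusted p = 0.042). The membrane-bound chemokine Cx3cl1 held 146, 176 and 217 CPM against 116 and 87.8 CPM (log2 0.81, SE 0.19, adjusted p = 0.0314). The lower genes included Ccl5, an inflammatory chemokine that attracts T cells, with 987, 1366 and 1650.1 CPM against 2645 and 2641 CPM (log2 -0.98, SE 0.23, adjusted p = 0.0312), and Cxcl16, a scavenger receptor and CXCR6 ligand, with 1547, 1784 and 1938 CPM against 2418 and 2404 CPM (log2 -0.45, SE 0.11, adjusted p = 0.0354). Ccr7, the receptor that guides DCs to lymph nodes, did not pass the test, with 2574 to 3563 CPM against 2462 and 2994 CPM (log2 0.08, SE 0.19, adjusted p = 0.923). Ccl22 stayed called without either null library. The adjusted p without null replicate 1 and without null replicate 2 was 0.297 and 0.271 for Ccl17, 0.0961 and 0.365 for Cx3cl1, 0.229 and 0.18 for Ccl5, and 0.279 and 0.217 for Cxcl16. Leaving out 1 biotin-positive library also ended these calls: replicate 2 or 4 for Ccl17, 2 or 3 for Cx3cl1, 3 or 6 for Ccl5, and 1, 2 or 6 for Cxcl16.

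Of 20 tested cytokine genes, 2 were higher (10%, against 1.22% of all tested genes) and 1 was lower (5%, against 1.05%). Ebi3, a subunit shared by interleukins 27 and 35, held 33.8, 77.3 and 104 CPM against 26.8 and 22.4 CPM (log2 1.60, SE 0.38, adjusted p = 0.0378), and the macrophage growth factor Csf1 44.4, 63.2 and 84.2 CPM against 21.6 and 26.7 CPM (log2 1.35, SE 0.34, adjusted p = 0.0439). Il12a, the p35 subunit of interleukin 12, had counts in 1 of 6 biotin-positive libraries (0.460 CPM) and stood at 3.26 and 7.18 CPM in the null libraries (adjusted p = 0.0248). The partner subunit Il12b was not called, with 0.723 to 45.8 CPM against 20.8 and 0 CPM (adjusted p = 0.936). Il10 and Il23a were at 0 in all 8 libraries. The adjusted p with null replicate 1 left out was 0.246 for Ebi3, 0.406 for Csf1 and 0.0748 for Il12a, and without null replicate 2 it was 0.289, 0.199 and 0.157. The calls of Ebi3 (without biotin-positive replicate 1, 2, 4 or 5) and Csf1 (without 2, 3, 4 or 5) also rested on single biotin-positive libraries.

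Of 34 tested genes for CD40, its adaptors and NF-kB, Cd40 and Tnfaip3 were called, both higher (5.88%, against 1.22% of all tested genes), Cd40 being fixed by genotype, and the list's median log2 fold change was 0.16. Tnfaip3 encodes A20, a deubiquitinase that dampens NF-kB, and held 812, 968 and 1222 CPM against 639 and 654 CPM (log2 0.61, SE 0.15, adjusted p = 0.0398). The adaptor Traf3 held 83.8, 109.8 and 140.4 CPM against 57.1 and 65.7 CPM without passing the test (log2 0.86, SE 0.24, adjusted p = 0.0796). Relb, an NF-kB subunit of the noncanonical branch, held 869.7, 1004 and 1083 CPM against 1182 and 1419 CPM (log2 -0.39, SE 0.11, adjusted p = 0.0866), while Traf1, a target of NF-kB, held 799.8, 939 and 989 CPM against 945 and 1056 CPM (log2 -0.11, SE 0.10, adjusted p = 0.681). For Nfkb1, Nfkb2, Rel, Rela and Birc3 the adjusted p was 0.214, 0.63, 0.854, 0.826 and 0.786. The call of Tnfaip3 was lost without null replicate 1 (adjusted p = 0.319), without null replicate 2 (0.242) and without biotin-positive replicate 4, 5 or 6.

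Promoters of 2 of these higher genes carry a motif of the kind NF-kB binds, and they are shown because NF-kB acts downstream of CD40. The 250 bases before the start of each gene are from RefSeq (GRCm38.p6), 5' to 3' on the gene's strand, with the match in capitals. The motif searched, on both strands, was GGAATTTCC.
Icam1, chr9:21015690-21015939, plus strand: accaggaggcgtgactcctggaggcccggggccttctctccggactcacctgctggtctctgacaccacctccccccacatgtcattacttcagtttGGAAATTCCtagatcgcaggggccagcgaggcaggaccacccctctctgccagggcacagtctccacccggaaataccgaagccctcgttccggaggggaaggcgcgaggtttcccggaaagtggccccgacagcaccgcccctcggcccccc
Tnfaip3, chr10:19015411-19015660, minus strand: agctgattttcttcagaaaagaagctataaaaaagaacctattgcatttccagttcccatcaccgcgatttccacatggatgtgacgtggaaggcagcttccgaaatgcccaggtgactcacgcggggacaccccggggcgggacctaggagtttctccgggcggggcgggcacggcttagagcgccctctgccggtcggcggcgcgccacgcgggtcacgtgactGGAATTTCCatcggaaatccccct
The match in Icam1 starts 153 bases before the gene's start and that in Tnfaip3 24 bases. The motif occurred in 94 of all 32851 promoters of this length in the table (0.286%), and in 42 of the 10450 that belong to tested genes (0.402%). Among called genes, 128 of the higher and 107 of the lower ones had a promoter there, and the motif was in 2 of the former and 0 of the latter. Only this 1 motif was searched, so other forms that NF-kB binds were not counted. A match describes these letters only.

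Of 20 tested survival and death genes of the BCL2 family 2 were called, both higher (10%, against 1.22% of all tested genes). Bcl2l1, which encodes the anti-apoptotic BCL-XL, held 179, 213 and 276 CPM against 63.9 and 58.9 CPM (log2 1.82, SE 0.31, adjusted p = 0.00442), and Bcl2l14, which encodes BCL-G, 37.6, 62.7 and 91.7 CPM against 10.9 and 11.2 CPM (log2 2.50, SE 0.38, adjusted p = 0.00176). The list's median log2 fold change was -0.03. The anti-apoptotic Mcl1 was not called, with 101 to 147 CPM against 132 and 105 CPM (log2 0.12, SE 0.17, adjusted p = 0.846), nor was the NF-kB-induced Bcl2a1b, with 488 to 702 against 563 and 503 CPM (log2 0.12, SE 0.13, adjusted p = 0.78). Bcl2l14 stayed called without either null library, while Bcl2l1 had an adjusted p of 0.073 without null replicate 1 and 0.0827 without null replicate 2.

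Glucocorticoid-induced genes, which steroid hormone acting on its nuclear receptor raises in many cells, included 3 higher and 0 lower among 30 tested (10% higher, against 1.22% of all), with a median log2 fold change of 0.44, against 0.04 over all. Beside Tsc22d3 they were Fkbp5, a chaperone of the receptor, with 21.1, 29.2 and 35.6 CPM against 11.3 and 5.42 CPM (log2 1.78, SE 0.32, adjusted p = 0.00544), and the clock gene Per1, with 61.4, 82.9 and 122 CPM against 31.4 and 41.0 CPM (log2 1.26, SE 0.31, adjusted p = 0.0398). Other members did not pass: Dusp1 held 202 to 497 CPM against 339 and 479 CPM (log2 -0.59, SE 0.28, adjusted p = 0.367), Zfp36 109.7 to 334 against 243 and 237 CPM (log2 -0.53, SE 0.31, adjusted p = 0.482), and Sgk1 0.226 to 11.0 against 25.8 and 23.5 CPM (log2 -2.47, SE 0.70, adjusted p = 0.0806). The last 3 had estimates below 0, opposite to the called members. Fkbp5 in biotin-negative libraries (28.5 to 40.7 CPM) overlapped its biotin-positive range, and Per1 in them (78.6 to 178 CPM) overlapped it too. In the fit that left out null replicate 1 the adjusted p was 0.0114 for Fkbp5 and 0.411 for Per1, and without null replicate 2 it was 0.123 and 0.156. Per1 also lost its call without any 1 of biotin-positive replicates 1 to 5.

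Genes linked to the PI3K pathway and to the FoxO transcription factors that it restrains were called in 1 direction. Of 29 tested PI3K and Akt genes 3 were higher (10.34%, against 1.22% of all tested genes), all of them regulatory subunits, and the median log2 fold change was 0.07. Pik3r5, the subunit that couples PI3K gamma to G protein-coupled receptors, held 942, 1091 and 1299 CPM against 283 and 458 CPM (log2 1.60, SE 0.17, adjusted p = 1.05e-04). Pik3r6, its alternative partner, held 54.0, 65.2 and 98.8 CPM against 28.6 and 21.9 CPM (log2 1.44, SE 0.33, adjusted p = 0.0296), and Pik3r3, of class IA, 50.9, 56.6 and 82.8 CPM against 34.0 and 26.4 CPM (log2 1.02, SE 0.24, adjusted p = 0.0367). The catalytic subunit Pik3cg was not called, with 67.8, 99.6 and 118 CPM against 53.6 and 62.9 CPM (log2 0.74, SE 0.26, adjusted p = 0.182). Of 38 FoxO target-like genes 4 were higher (10.53%, against the same 1.22%): Pdcd4, the insulin receptor Insr, the interleukin 7 receptor Il7r and the ubiquitin ligase subunit Fbxo32. Insr held 113, 119 and 137 CPM against 51.4 and 63.8 CPM (log2 1.08, SE 0.21, adjusted p = 0.00917), and Fbxo32 44.2, 58.6 and 83.2 CPM against 31.1 and 29.6 CPM (log2 0.99, SE 0.24, adjusted p = 0.0372). Il7r held 215, 279.9 and 346 CPM against 167 and 115 CPM (log2 1.00, SE 0.21, adjusted p = 0.0174), with biotin-negative libraries higher still at 355 to 584 CPM (log2 -0.78, adjusted p = 0.00194). Without null replicate 1 the adjusted p was 0.156 for Pik3r6, 0.155 for Pik3r3, 0.206 for Insr, 0.269 for Fbxo32 and 0.0456 for Il7r, and without null replicate 2 it was 0.285, 0.354, 0.06, 0.269 and 0.278. Pik3r3 lost its call also without biotin-positive replicate 1, 2 or 3, and Fbxo32 without 1, 2, 4 or 6.

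**Figure D3:**
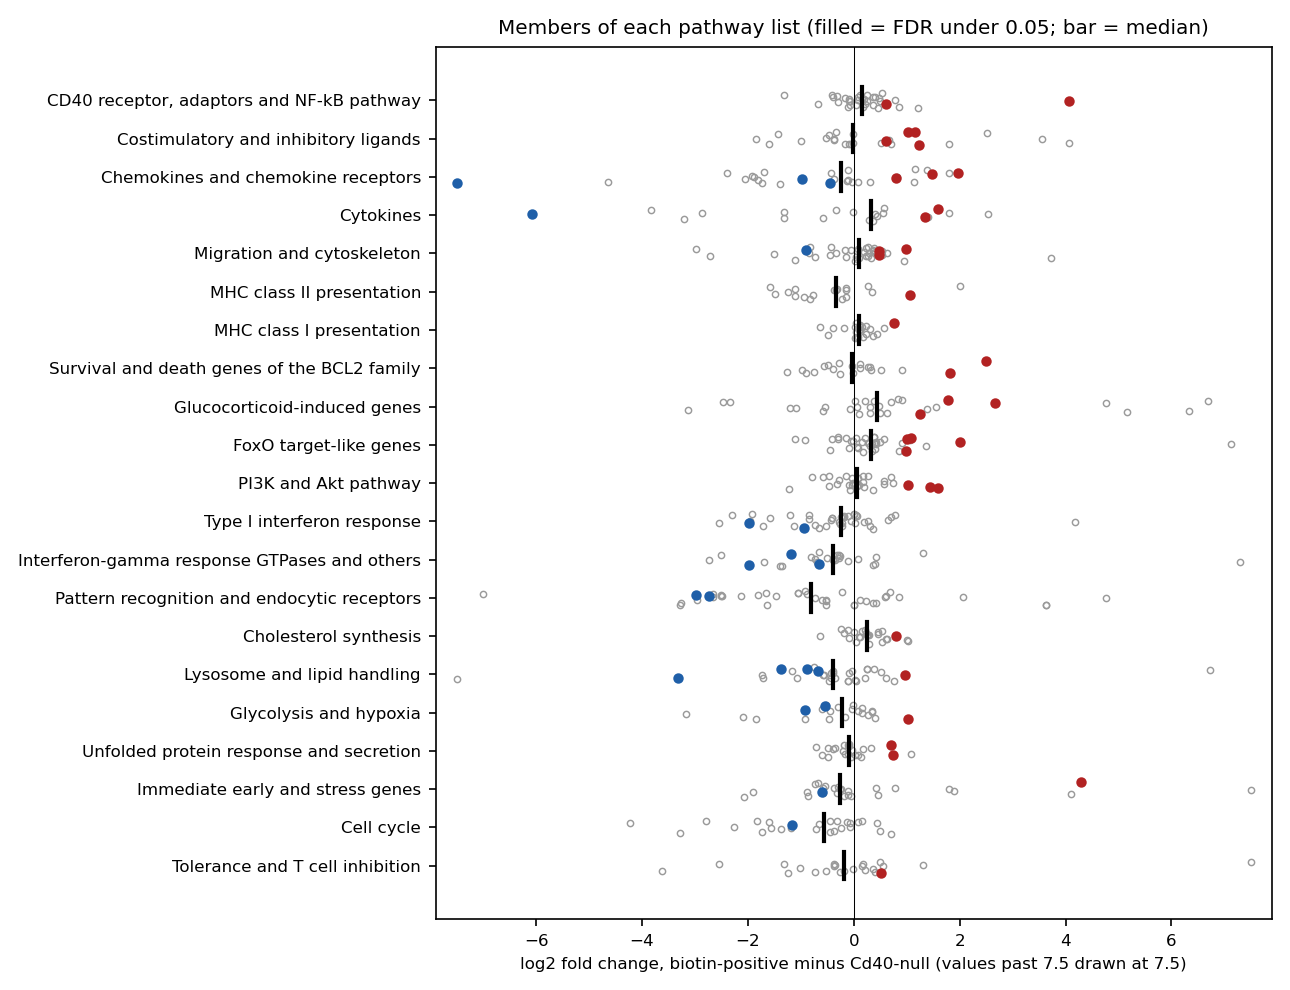
Log2 fold change (biotin-positive minus null, edgeR) of every tested member of 21 pathway lists. Filled points passed a false discovery rate of 0.05 (red higher, blue lower), open points did not, and the bar is the list's median, between -0.81 for pattern recognition and endocytic receptors and 0.44 for glucocorticoid-induced genes.

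Maturation markers of DCs were among the called genes. Of 25 tested genes of the mature and migratory DC list, 9 were higher (36%, against 1.22% of all tested genes) and 1, Ccl5, was lower (4%, against 1.05%). Estimates were above 0 for 17 and below 0 for 8. Both null libraries lay below every biotin-positive library for 13 (7.81% of all genes) and above every one for 5 (8.07%). The list's summed level ran from 58376 to 65901 CPM in biotin-positive libraries and was 47314 and 53301 CPM in null replicates 1 and 2, with no overlap. In sorted bulk samples, fewer cells of a type and less RNA per cell cannot be told apart. The list holds Ccl22, Ccl17, Cd86 and Bcl2l14, and was chosen with such differences known. The actin bundler Fscn1 held 5867, 7440.1 and 8288 CPM against 3072 and 4189.9 CPM (log2 0.98, SE 0.15, adjusted p = 0.00243). The granzyme B inhibitor Serpinb9 held 2304, 2645 and 3352 CPM against 1521 and 1515 CPM (log2 0.85, SE 0.16, adjusted p = 0.00953), and its relative Serpinb6b 1824, 2019 and 2150.04 CPM against 1063 and 981 CPM (log2 0.97, SE 0.12, adjusted p = 4.69e-04). Both null libraries lay below all biotin-positive libraries for these 3 genes. Biotin-negative libraries held 715 to 996 CPM of Serpinb6b, below every biotin-positive library and overlapping the null values. Of the genes of migration and the cytoskeleton 3 of 39 were higher (7.69%) and 1 lower (2.56%): beside Fscn1, the leukocyte actin-binding protein Lsp1 (log2 0.47, SE 0.11, adjusted p = 0.0341) and the adaptor Samsn1 (log2 0.47, SE 0.12, adjusted p = 0.048), and, lower, the intermediate filament Vim (896 to 1777 CPM against 2719 and 2313 CPM; log2 -0.90, SE 0.20, adjusted p = 0.025). Serpinb6b stayed called without either null library. The adjusted p without null replicate 1 and 2 was 0.0906 and 0.00803 for Fscn1, 0.121 and 0.105 for Serpinb9, 0.488 and 0.073 for Lsp1, 0.161 and 0.421 for Samsn1, and 0.305 and 0.095 for Vim. Lsp1 lost its call also without biotin-positive replicate 2, 3 or 6, and Samsn1 without 1, 3, 4, 5 or 6.

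Genes lower in biotin-positive DCs included some of interferon responses. Mx1, an interferon-induced GTPase, held 85.7, 111 and 168 CPM in biotin-positive libraries and 420.3 and 495 CPM in the null libraries, 3.93-fold more (log2 -1.98, SE 0.23, adjusted p = 2.28e-04). It was 1 of 2 called among 41 tested type I interferon genes, both lower (4.88%, against 1.05% of all tested genes). Estimates on that list were below 0 for 28 genes and above 0 for 12. Isg15 and Irf7, also induced by interferon, were not called: Isg15 held 2.76 to 6.78 against 9.01 and 5.16 CPM (log2 -0.43, SE 0.50, adjusted p = 0.794), and Irf7 1.08 to 13.7 against 23.6 and 34.3 CPM (log2 -2.55, SE 0.76, adjusted p = 0.102). Of 27 tested interferon-gamma response genes 3 were lower (11.11%) and 0 higher, with a median log2 fold change of -0.40, and for 11 of the 27 both null libraries lay above every biotin-positive one (8.07% of all genes). The 3 lower genes were the receptor chain Ifngr1 (21.9, 29.6 and 43.7 against 79.6 and 58.3 CPM; log2 -1.19, SE 0.24, adjusted p = 0.0134), and the GTPases Tgtp2 (20.1, 45.1 and 73.4 against 189.7 and 161 CPM; log2 -1.97, SE 0.41, adjusted p = 0.0156) and Gbp4 (161, 196 and 238 against 346 and 276 CPM; log2 -0.66, SE 0.15, adjusted p = 0.0332). The difference of Mx1 between biotin-negative and null libraries was not called (305 to 625 CPM; log2 -0.06, adjusted p = 0.982). Mx1 stayed called without either null library. Without null replicate 1 and 2 the adjusted p was 0.287 and 0.0469 for Ifngr1, 0.155 and 0.0785 for Tgtp2, and 0.494 and 0.0785 for Gbp4. Gbp4 also lost its call without biotin-positive replicate 2, 4 or 6.

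In the lysosome and lipid list, 4 of 33 tested genes were lower (12.12%, against 1.05% of all) and 1 was higher (3.03%, against 1.22%). Npc2, which carries cholesterol out of lysosomes, held 314, 478 and 490.4 CPM against 1146 and 1185 CPM (log2 -1.38, SE 0.16, adjusted p = 2.44e-04). Psap, the precursor of the saposins that help degrade sphingolipids, held 440.1, 503 and 539.6 CPM against 791 and 1039.8 CPM (log2 -0.88, SE 0.15, adjusted p = 0.00492), and Hexa, a subunit of beta-hexosaminidase, 78.1, 93.0 and 104 CPM against 140.3 and 155 CPM (log2 -0.68, SE 0.14, adjusted p = 0.0157). The fatty acid carrier Fabp4 was scarce, with 1.24, 2.57 and 7.13 CPM against 38.6 and 27.1 CPM, 9.98-fold lower in biotin-positive libraries (log2 -3.32, SE 0.46, adjusted p = 0.00107). The protease cathepsin B, Ctsb, went the other way, with 1009, 1237 and 1411 CPM against 520.4 and 718 CPM (log2 0.97, SE 0.17, adjusted p = 0.00501). Laptm5, a lysosomal membrane protein of leukocytes outside this list, held 565, 708 and 809 CPM against 1297 and 1524 CPM (log2 -1.02, SE 0.15, adjusted p = 0.00123). Npc2, Fabp4 and Laptm5 stayed called without either null library. The adjusted p without null replicate 1 and 2 was 0.0167 and 0.156 for Psap, 0.106 and 0.212 for Hexa, and 0.155 and 0.0149 for Ctsb.

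Receptors for microbes and antigen were mostly scarce in both groups. Of 40 tested, 2 were lower (5%, against 1.05% of all tested genes) and 0 higher, with the median log2 fold change at -0.81. For 12 of the 40 both null libraries lay above every biotin-positive library (8.07% of all genes). The inhibitory lectin Clec12a held 0.670, 8.69 and 18.9 CPM against 68.0 and 82.8 CPM (log2 -2.99, SE 0.55, adjusted p = 0.00658), and the peptidoglycan sensor Nod1 0.679, 5.64 and 8.56 CPM against 41.0 and 24.0 CPM (log2 -2.74, SE 0.66, adjusted p = 0.0367). Without null replicate 1 and 2 the adjusted p was 0.0456 and 0.0659 for Clec12a, and 0.361 and 0.095 for Nod1, which also lost its call without biotin-positive replicate 2, 3 or 4. Of 19 tested MHC class II genes 15 had estimates below 0. None of those 15 was called in edgeR's test and 7 of the 19 had an unadjusted p under 0.05. H2-Aa held 289.7, 343 and 794 CPM against 836 and 1067 CPM (log2 -1.10, SE 0.31, adjusted p = 0.0763), H2-Eb1 181, 326 and 631 CPM against 693 and 1039 CPM (log2 -1.24, SE 0.34, adjusted p = 0.0672), and the invariant chain Cd74 658, 765 and 1575 CPM against 1407 and 1744 CPM (log2 -0.78, SE 0.27, adjusted p = 0.184). Biotin-negative libraries, with 1004 to 2278 CPM of H2-Aa, lay above every biotin-positive library and overlapped the null values. Of the 19 class II genes 1 was called higher (5.26%, against 1.22% of all tested genes). The 1 called class II gene was Rfxank, a subunit of the RFX factor that drives them, and it was higher (46.1, 50.8 and 55.8 against 21.5 and 26.9 CPM; log2 1.07, SE 0.25, adjusted p = 0.0338; adjusted p = 0.395 without null replicate 1, 0.144 without null replicate 2, and lost also without biotin-positive replicate 2, 3, 4 or 6). Of 24 class I genes Nlrc5, their transactivator, was the 1 called, and it was higher (4.17%, against 1.22% of all tested genes). It held 365, 436 and 496 against 255 and 258 CPM (log2 0.77, SE 0.17, adjusted p = 0.0212). Its call was lost without null replicate 1 (log2 0.76) and without null replicate 2 (log2 0.77).

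Other lower genes with the smallest p belong to none of these groups. Lrmp, a membrane protein of the endoplasmic reticulum in lymphoid cells, held 10.4, 14.4 and 27.9 CPM against 115 and 147 CPM (log2 -2.98, SE 0.35, adjusted p = 2.34e-04). Ehf, an ETS transcription factor, held 5.16, 16.2 and 27.2 CPM against 106 and 126 CPM (log2 -2.83, SE 0.38, adjusted p = 7.39e-04), and Zeb2, a zinc finger repressor on the type 2 DC list, 4.44, 14.4 and 32.3 CPM against 126 and 111 CPM (log2 -2.83, SE 0.42, adjusted p = 0.00156). For these 3 genes the lowest null value was over 3 times the highest biotin-positive value. Secreted proteins included Ndnf (56.6, 60.4 and 79.1 against 177 and 175 CPM; log2 -1.45, SE 0.19, adjusted p = 6.27e-04) and the extracellular superoxide dismutase Sod3 (62.1, 85.1 and 118 against 284 and 287 CPM; log2 -1.67, SE 0.24, adjusted p = 0.00138). Evi2a, a membrane protein, held 21.8, 30.9 and 34.7 against 134 and 108 CPM (log2 -2.03, SE 0.26, adjusted p = 4.82e-04), and Limd2 38.3, 42.0 and 48.4 against 109 and 90.2 CPM (log2 -1.22, SE 0.16, adjusted p = 5.33e-04). Tmcc2, a coiled-coil membrane protein, held 9.49, 15.5 and 16.2 against 52.9 and 72.8 CPM (log2 -2.17, SE 0.33, adjusted p = 0.00176). All 8 stayed called without either null library. Ptma, the acidic nuclear protein prothymosin alpha, held 367, 381 and 445 against 746 and 629 CPM (log2 -0.81, SE 0.12, adjusted p = 0.00138), with an adjusted p of 0.0694 without null replicate 1. Biotin-negative libraries of Ehf (82.3 to 152 CPM) and Zeb2 (66.7 to 127 CPM) lay above every biotin-positive library too.

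Most genes of protein synthesis had small estimates below 0. These 2 families were taken by symbol after the values had been seen, so their counts are a description. Of 78 tested cytosolic ribosomal protein genes 76 had an estimate below 0, the median log2 fold change was -0.48, and 4 were called lower: Rpl4 (712 to 864 against 1178 and 1149.9 CPM; log2 -0.54, SE 0.10, adjusted p = 0.00695), Rpl10 (log2 -0.77, SE 0.18, adjusted p = 0.0315), Rpl6 (log2 -0.55, SE 0.13, adjusted p = 0.0328) and Rpl7 (log2 -0.50, SE 0.12, adjusted p = 0.0384). Of all tested genes 1.05% were called lower, and the median log2 fold change over all was 0.04. In 50 of the 78 both null libraries lay above every biotin-positive library (8.07% of all genes). Of 49 translation initiation and elongation factors 42 had an estimate below 0, the median was -0.34, and 6 were called lower, led by Eif4b, a helper of the helicase that unwinds messenger RNA (324 to 418 against 577 and 715 CPM; log2 -0.86, SE 0.14, adjusted p = 0.00253), and Eef1a1, which brings transfer RNA to the ribosome (4654 to 5841 against 7741 and 7546 CPM; log2 -0.49, SE 0.10, adjusted p = 0.0109). The family medians kept their sign without null replicate 1 (-0.38 and -0.22), without null replicate 2 (-0.57 and -0.47) and under both other scalings tried (-0.49 and -0.34, -0.50 and -0.36). The calls did not all hold: without null replicate 1 there were 0 and 1, and without null replicate 2 there were 0 and 0. The replicate block gave 0 and 3 lower, DESeq2 14 and 10, and limma voom 15 and 9. Reads of ribosomal protein genes are shared with many processed copies, so single members are uncertain.

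**Figure D4:**
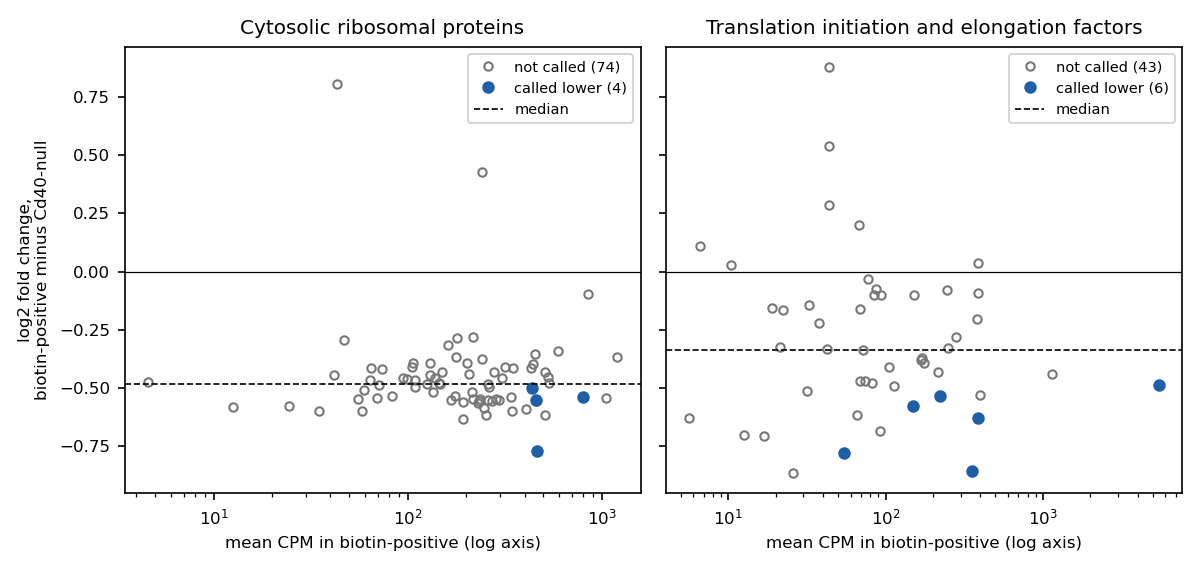
Log2 fold change (biotin-positive minus null, edgeR) against the mean CPM in biotin-positive libraries (log axis) for 78 ribosomal protein genes (left) and 49 translation factors (right). Filled points were called lower (4 and 6), and the dashed lines are the medians, -0.48 and -0.34.

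Other pathway lists held 1 to 3 called genes each, and the sex-linked list held 0. Against 1.22% of all tested genes, 4.55% were higher in glycolysis, 8.7% in the unfolded protein response, 4% in cholesterol synthesis and 4.35% in tolerance. Against 1.05% of all, 9.09% were lower in glycolysis and 3.85% in the cell cycle. Of 27 tested immediate early and stress genes, which include the heat shock genes, 3.7% were higher and 3.7% lower. In glycolysis and hypoxia (22 tested) the regulator Pfkfb3 was higher (4268, 5454 and 5949 against 2253 and 2923 CPM; log2 1.03, SE 0.15, adjusted p = 0.00176), while the enzymes Ldha (108, 136 and 169 against 332 and 189 CPM; log2 -0.92, SE 0.19, adjusted p = 0.0181) and Gpi1 (207, 210.3 and 255 against 306 and 336 CPM; log2 -0.55, SE 0.13, adjusted p = 0.0367) were lower. In the unfolded protein response (23 tested) Herpud1 (382 to 492 against 240.4 and 282 CPM; log2 0.74, SE 0.15, adjusted p = 0.015) and Sel1l (350.2 to 485 against 262 and 234 CPM; log2 0.71, SE 0.15, adjusted p = 0.0163), both of the machinery that degrades misfolded proteins, were higher. Cyp51, a demethylase of cholesterol synthesis, was the 1 called of 25 in that pathway (269 to 359 against 184 and 181 CPM; log2 0.79, SE 0.16, adjusted p = 0.0159). Of the heat shock genes, Hspa1a was higher and spread widely (116, 219 and 672 against 9.21 and 19.2 CPM; log2 4.30, SE 0.98, adjusted p = 0.0353), and the constitutive Hspa8 was lower (1719.6, 1829 and 2003 against 2989 and 2579 CPM; log2 -0.60, SE 0.09, adjusted p = 0.0013). Of 26 cell cycle genes the replication helicase subunit Mcm2 was lower (21.3 to 38.9 against 65.9 and 66.3 CPM; log2 -1.17, SE 0.26, adjusted p = 0.0245), and of 23 genes of tolerance the inhibitory receptor Lilrb3 was higher (953 to 1192 against 684 and 774 CPM; log2 0.51, SE 0.11, adjusted p = 0.0195). None of these 10 genes stayed called in both fits with 1 null library. With null replicate 1 left out the adjusted p was 0.0694 for Pfkfb3, 0.656 for Ldha, 0.18 for Gpi1, 0.269 for Herpud1, 0.108 for Sel1l, 0.157 for Cyp51, 0.395 for Hspa1a, 0.0729 for Hspa8, 0.195 for Mcm2 and 0.327 for Lilrb3. Without null replicate 2 it was, in the same order, 0.00803, 0.00804, 0.321, 0.0784, 0.221, 0.16, 0.174, 0.00661, 0.166 and 0.0889. Gpi1 also lost its call without biotin-positive replicate 1, 2, 3, 5 or 6, and Hspa1a without 3. Of 2 neutrophil and mast cell markers and 2 erythroid markers tested none was called, with 0 and 1 at an unadjusted p under 0.05. Of 9 sex-linked transcripts none was called in edgeR's test, with 2 at an unadjusted p under 0.05.

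The summed markers of several other cell types lay lower in biotin-positive libraries. NK cell markers summed to 1071 to 1703 CPM in biotin-positive libraries (median 1416) and to 2818 and 2838 CPM in the null libraries. Among 9 tested, 4 were lower (44.44%, against 1.05% of all tested genes). Of the 9, 4 had estimates above 0. Most of the sum was Ccl5, at 987 to 1650.1 and at 2645 and 2641 CPM, and without it the sum was 45.4 to 90.2 CPM against 173 and 197 CPM. The others were Klrd1 (3.29, 5.14 and 8.91 against 24.5 and 34.8 CPM; log2 -2.33, SE 0.31, adjusted p = 6.27e-04), which encodes the CD94 receptor, Klri2 (4.04, 6.25 and 11.8 against 35.4 and 32.5 CPM; log2 -2.20, SE 0.34, adjusted p = 0.00222), and Klrk1, which encodes NKG2D (32.3, 36.5 and 61.9 against 109 and 128 CPM; log2 -1.46, SE 0.23, adjusted p = 0.00268). Defining NK genes were nearly absent: Ncr1 and Gzma were at 0 in all 8 libraries, and Prf1 and Klrb1c were at 0 in both null libraries. Klrd1 and Klri2 stayed called without either null library, and Klrk1 had an adjusted p of 0.0571 without null replicate 2.

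Monocyte and macrophage markers summed to 221 to 402 CPM in biotin-positive libraries (median 325), against 935 and 595 CPM in the null libraries (exact permutation test, two-sided p = 0.0714, the smallest 28 arrangements allow). Of 29 tested, 1 was lower (3.45%, against 1.05% of all tested genes), the lysozyme Lyz1. It held 4.68, 6.99 and 13.1 against 84.6 and 27.5 CPM (log2 -2.90, SE 0.64, adjusted p = 0.0237). Without null replicate 1 its log2 fold change was -1.87 and the call was lost. B cell markers summed to 170 to 358 CPM against 604 and 447 CPM (the same p), and 2 of 15 were lower (13.33%, against the same 1.05%). The list's members had 8 estimates above and 7 below 0, with a median log2 fold change of 0.23. The lower genes were the adaptor Blnk (42.0, 56.7 and 86.9 against 160.4 and 159 CPM; log2 -1.44, SE 0.26, adjusted p = 0.00592) and the transcription factor Spib (23.8, 82.1 and 107 against 281 and 219 CPM; log2 -1.75, SE 0.39, adjusted p = 0.0245), which is also on the plasmacytoid DC list. Without these 2, left out after their values were seen, the sum overlapped between the groups, at 87.8 to 185 CPM against 163 and 68.6 CPM. T cell markers overlapped between the groups, at 330 to 470 CPM against 571 and 280.0 CPM (exact permutation test, two-sided p = 0.857). Of 27 tested, Il7r was higher and the interleukin 2 receptor chain Il2ra lower (3.7% each, against 1.22% and 1.05% of all tested genes). Il2ra held 21.4, 43.8 and 60.8 against 108 and 102 CPM (log2 -1.31, SE 0.29, adjusted p = 0.0264). Stromal markers summed to 8.82 to 54.1 CPM against 149 and 42.9 CPM (exact permutation test, two-sided p = 0.143). Cxcl13, which is on this list, made up most of the sum in null replicate 1 and little of it in null replicate 2. Without null replicate 1 and 2 the adjusted p was 0.0758 and 0.064 for Blnk, 0.279 and 0.103 for Spib, and 0.231 and 0.142 for Il2ra, and 0.848 for Cxcl13 without null replicate 1. Spib and Il2ra lost their calls without biotin-positive replicate 3, Lyz1 without 2, and Cxcl13 without 1, 3 or 4. The part of these cell types in the other differences was not tested.

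Langerhans cell markers were the 1 list of another DC kind that summed higher, at 299 to 354 CPM (median 321) in biotin-positive libraries against 138 and 134 CPM, with none of 6 called in edgeR's test and 3 at an unadjusted p under 0.05. Langerin, Cd207, held 72.6, 110.4 and 126 CPM against 34.7 and 25.7 CPM (log2 1.80, SE 0.50, adjusted p = 0.0745), and the adhesion molecule Epcam 124, 147 and 171 against 65.9 and 64.7 CPM (log2 1.19, SE 0.33, adjusted p = 0.0758). Plasmacytoid DC markers summed to 103 to 262 CPM against 423 and 348 CPM, with Spib called lower among 10 tested (10%, against 1.05% of all tested genes). Without Spib the sum overlapped, at 79.1 to 175 CPM against 142 and 129 CPM. Type 1 and type 2 DC markers overlapped between the groups in their sums. Of 13 type 1 markers none was called (4 at an unadjusted p under 0.05): the integrin Itgae held 7.17 to 11.2 CPM against 0.925 and 0.413 CPM (log2 3.73, SE 1.17, adjusted p = 0.122), and the amidase Naaa 1.16 to 5.92 against 12.8 and 19.8 CPM (log2 -2.03, SE 0.59, adjusted p = 0.0836).

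**Figure D5:**
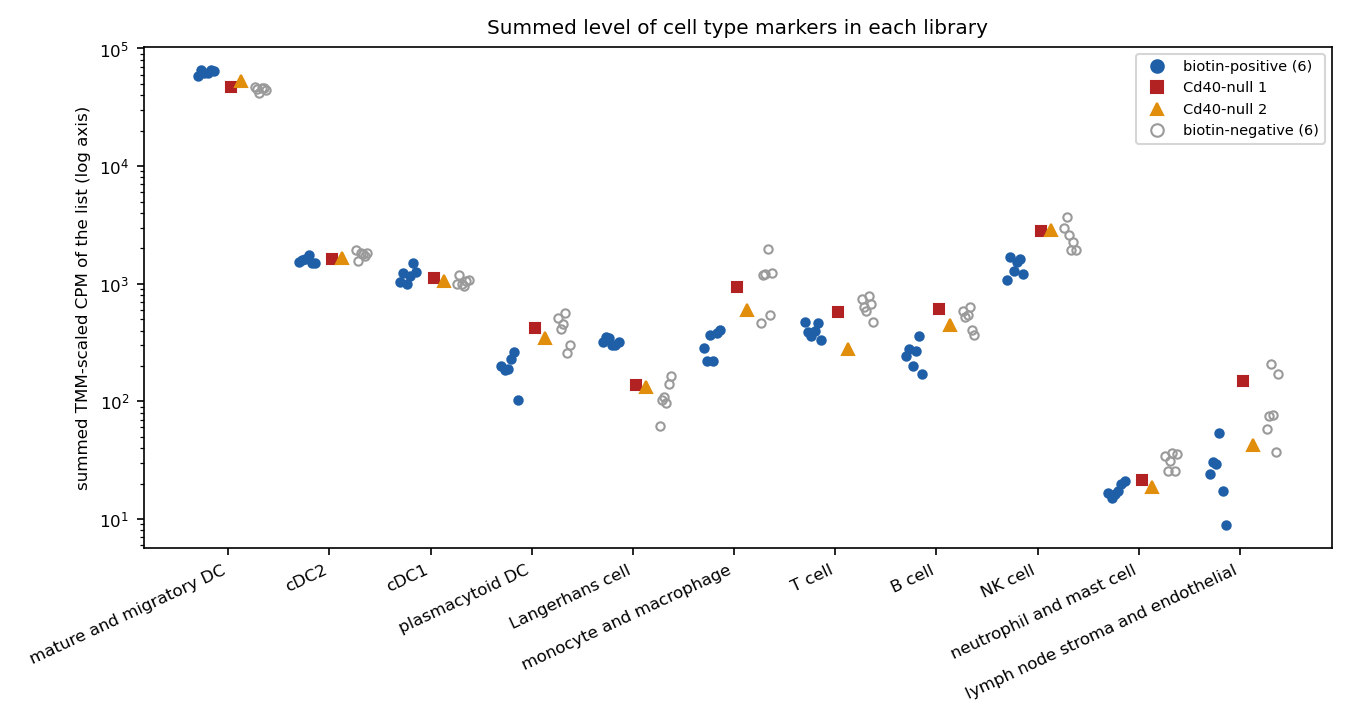
Summed TMM-scaled CPM (log axis) of 11 lists of cell type markers in each biotin-positive (filled circles), null (square for replicate 1, triangle for replicate 2) and biotin-negative library (open circles). Mature DC and Langerhans cell markers lie higher in biotin-positive than in null libraries, and monocyte, B cell, NK cell and plasmacytoid DC markers lower, with no overlap. Without Blnk and Spib the B cell sum overlaps, as does the plasmacytoid sum without Spib; T cell markers overlap.

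Some genes were present in 1 group only. Of the 174 higher genes 5 had 0 counts in both null libraries, and of the 149 lower genes 8 had 0 counts in all 6 biotin-positive libraries. Among all 14217 tested genes, 1042 had 0 counts throughout at least 1 of these 2 groups, so such zeros were not particular to called genes. Ushbp1, a binding partner of the harmonin scaffold, was the best expressed of the former, with 24.4, 52.8 and 67.6 CPM in biotin-positive and 18.7 to 74.3 CPM in biotin-negative libraries. It was the 1 called of the 6 best expressed genes at 0 in the null group, unnamed loci left out. The others were Klhl38 (5.39 to 12.5 CPM; adjusted p = 0.0738), Rspo2 (3.50 to 21.9 CPM; adjusted p = 0.151), Gng7 (0 to 8.15 CPM; 0.175), Glb1l2 (0 to 9.13 CPM; 0.176) and Afap1l2 (0.0657 to 8.03 CPM; 0.27). In the other direction Lynx1 was called (3.34 and 3.98 CPM in the null libraries, at least 140.2-fold above the biotin-positive limit, adjusted p = 0.0444), though without null replicate 1 the adjusted p was 0.163, without null replicate 2 it was 0.16, and no fit without 1 biotin-positive library kept it. Rufy4 (3.02 and 4.85 CPM; adjusted p = 0.0569) was not called. Ptpn13, Fpr2 and Cmya5 rested on 1 null library each, with 22.5 and 0.103, 5.31 and 0 and 0 and 5.94 CPM in null replicates 1 and 2.

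The null libraries also differed from each other. Genes with the largest ratio between them, chosen for that ratio and so only described, were mostly high in null replicate 1. There Cxcl13 stood at 107 CPM against 2.27 in null replicate 2. The serine synthesis enzyme Phgdh held 55.8 and 4.03 CPM in null replicates 1 and 2, the phosphatase Dusp2 80.6 and 5.16 CPM, the sorting nexin Snx20 75.4 and 4.23 CPM and the sphingosine phosphatase Sgpp1 49.0 and 4.18 CPM. The neutrophil-attracting chemokine Cxcl1 was the reverse, with 2.09 and 74.5 CPM. Some T cell genes were higher in value in replicate 1: the kinase Lck held 33.6 and 7.12 CPM, the adhesion molecule Cd2 12.6 and 0.516 CPM and the inhibitory receptor Ctla4 27.5 and 0 CPM, named after their values were seen. Cd3e, of the T cell receptor complex, held 3.62 and 1.39 CPM in them and 0 to 4.49 CPM in biotin-positive libraries.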

How the data were processed

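RNA was measured in 14 Smart-seq2 libraries of 150 sorted cells, 38-base reads per the labels' protocols. The authors' deposited table holds RSEM expected counts for 23420 genes. The submitters' processing notes name Bowtie2 2.1.0, RSEM 1.2.8, DESeq2 1.16.0 and the mm10 build, with no roles given. A second deposited table holds a normalized signal for 10321 genes, which equals those counts divided by 1 factor per library (largest relative deviation 5.11e-15, 27 date-like symbols left out), and served as an alternative.

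Expected counts were rounded, genes filtered with filterByExpr at a minimum count of 10 (14217 kept), scaled by TMM, and fitted over all 14 libraries by group with edgeR 4.0.16 (R 4.3.3), robust quasi-likelihood test, Benjamini-Hochberg adjustment over all tested genes and a threshold of 0.05. Such p-values are the adjusted p throughout. Differences are biotin-positive minus null log2 fold changes, and SE is the fold change over the root of F. Library measures and the summed T cell, monocyte and macrophage, B cell and stromal markers were compared by exact permutation. Other sums were not tested. The script was tested on simulated data. A gene at 0 in a group was bounded by 3 counts over that group. This covers counting error only.

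Members and lists were chosen with earlier results of these data known. Named genes are the 15 higher and 15 lower with the smallest p at a mean of at least 5 CPM, 6 at 0 in either group, up to 6 called per list (or 2 with the smallest p), the 6 most unlike between null libraries, and called genes within 5 Mb of Cd40. Others named beside a list are uncalled members shown for comparison, chosen after their values were seen. Genes of the H2, Klr, Serpinb6, Lyz and Hspa1 families have near-identical copies and are uncertain singly. Alternatives were other scalings and filters, limma 3.58.1, DESeq2 1.42.0, the 8 libraries alone, a replicate block and each library left out. Positions are from GENCODE on GRCm38 and promoters from RefSeq GRCm38.p6. A few called genes counted in the lists are not reported here by name.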

Additional observations from a re-analysis of the deposited data

Results flagged for a closer look

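Of 88 groups of 6 biotin-positive values examined, 6 held a library far from the others, and chance alone does this in about 1 in 20 groups. The total count of biotin-positive replicate 5 was 3.33e+07, with the next library at 1.91e+07. Replicate 6 held the lowest Npc2, 314 CPM, with the next at 436 CPM. Replicate 3 was the 1 library with Il12a, at 0.460 CPM. Replicate 4 stood highest in 3 genes: Pik3r6 at 98.8 CPM (next 70.3), Gpi1 at 254.6 CPM (next 223) and Hspa1a at 672 CPM (next 309).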

How the results depend on the processing

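The count of called genes depended most on the 2 null libraries and on the tool. Against 323 calls (174 higher, 149 lower), limma voom gave 603 (261 higher, 342 lower), DESeq2 888 (573 and 315) and the deposited normalized signal 445 (289 and 156). RLE factors (326), upper-quartile factors (327), no filter (306), a minimum count of 50 (347) and the 8 libraries alone (266) stayed within 1.5 times. The genes were not all the same: of the 323, these settings shared 320, 318, 286, 314 and 210, in that order. Of the 87 named called genes, 68 kept their call in the 8 libraries alone and 53 under the replicate block. Leaving out 1 library at a time gave 78 to 346 calls, 40 to 181 of them higher and 38 to 165 lower, and Cd40 from 3.84 to 4.32. With 1 null library left, it is assumed to vary like the other groups. The replicate block gave 129 calls (75 higher, 54 lower), 123 of them shared; same-numbered biotin-positive and null libraries did not deviate together (correlations 0.04 and -0.03), so the numbers are not taken to pair them. Of 87 named called genes none changed sign in any setting, 37 kept their call without null replicate 1 and 41 without null replicate 2. Of the uncalled named genes, Cmya5 (-9.91 to 0) and Fpr2 (-9.78 to 0) had 0 counts in every library compared without null replicate 2 and 1, respectively, which gives no direction. Others changed sign with 1 library left out, with ranges of -0.32 to 0.11 for Cxcr2, -0.65 to 4.50 for Cxcl1, -2.45 to 2.11 for Snx20, -2.04 to 2.38 for Dusp2 and -2.55 to 1.00 for Sgpp1. This came without null replicate 1, and for Cxcl1 also without biotin-positive replicate 5 (-0.02). Under the block Snx20 was 0.085 and Dusp2 0.39. Fewer samples remain in fits that leave 1 out; otherwise the cause was not tested.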

Other observations

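Other called genes, chosen after their values were seen, included ligands and receptors outside the lists. The Notch ligand Dll4 held 98.8, 175 and 213 CPM (lowest, median, highest) in biotin-positive libraries, and 29.2 and 5.78 CPM in null replicates 1 and 2 (log2 3.24, SE 0.56, adjusted p = 0.00477). Biotin-negative libraries held 27.4 to 72.0 CPM. With null replicate 1 left out the adjusted p of Dll4 was 0.00285, and with null replicate 2 left out 0.0504. Adra1a, an alpha-1 adrenergic receptor, held 25.8, 54.2 and 95.2 CPM against 2.86 and 2.89 CPM (log2 4.32, SE 0.63, adjusted p = 0.00143). In both genes every biotin-positive library lay above both null libraries. Irf5, a transcription factor of inflammatory responses, held 396, 508 and 542 CPM against 309 and 256 CPM (log2 0.81, SE 0.17, adjusted p = 0.0169), with an adjusted p of 0.0902 and 0.245 without null replicate 1 and 2.

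Lower genes outside the lists included signalling and adhesion genes of leukocytes. The GTPase Rac2, which drives actin remodelling and the NADPH oxidase, held 20.6, 28.1 and 40.5 CPM against 114 and 76.0 CPM (log2 -1.74, SE 0.27, adjusted p = 0.00219; adjusted p = 0.0903 without null replicate 1). The hyaluronan receptor Cd44 held 591, 662 and 918 CPM against 1299.9 and 1139 CPM (log2 -0.79, SE 0.14, adjusted p = 0.00528; adjusted p = 0.134 without null replicate 1). Dpp4, a peptidase that trims chemokines, held 43.2, 69.2 and 109 CPM against 214 and 258 CPM (log2 -1.69, SE 0.30, adjusted p = 0.00546; adjusted p = 0.0847 without null replicate 2). The integrin chain Itga1 held 0.0613, 4.58 and 7.30 CPM against 49.7 and 45.4 CPM (log2 -3.47, SE 0.60, adjusted p = 0.00464) and, like Adra1a, stayed called without either null library. The nucleolar proteins Npm1 (225, 309 and 347 against 651 and 453 CPM; log2 -0.88, SE 0.16, adjusted p = 0.00709) and Ncl (142, 169 and 175 against 394 and 233 CPM; log2 -0.94, SE 0.15, adjusted p = 0.00333) were also lower, with adjusted p of 0.31 and 0.28 without null replicate 1.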
